A study of Homo sapiens with 18 samples.

Results

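The genes described here encode histones, the proteins around which DNA is wound. They comprise 73 rows whose older symbols place them in the histone gene clusters HIST1 to HIST4, and 8 histone variants, H2AFX, H2AFZ, H2AFY, H2AFV, H3F3A, H3F3B, H1F0 and H1FX, which makes 81 of 23368 gene rows. The members were chosen by symbol alone. Of the cluster genes, 56 carry a HIST1 symbol, 13 HIST2, 3 HIST3 and 1 HIST4, and they comprise 6 genes for the linker histone H1, 18 for H2A, 20 for H2B, 14 for H3 and 15 for H4. RNA had been sequenced from SJSA-1 cells, a human osteosarcoma line with amplified MDM2 and CDK4 genes, in 6 groups of 3 libraries. The control group received the solvent DMSO. The Nutlin group received 20 µM Nutlin, an MDM2 antagonist that activates p53, for the last 6 h of a 30 h schedule. PD24 and PD30 received 10 µM PD0332991 (Palbociclib), an inhibitor of CDK4 and CDK6, for the first 24 h or for all 30 h, and N+PD24 and N+PD30 combined each schedule with Nutlin. All groups are cultures of 1 cell line. The study calls the libraries of a group biological replicates. The labels do not say how the cultures were kept apart, and p-values measure the spread between these libraries.

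Most histone protein is made during S phase, when new DNA must be packed. The replication-dependent genes in the clusters supply it: they have no introns, and their mRNAs usually end in a conserved stem-loop bound by SLBP instead of a poly(A) tail. Variant genes lie elsewhere, are mostly expressed outside S phase as well, and yield polyadenylated mRNA, with H2AFX known to yield both forms. The library kit named in the labels selects polyadenylated RNA in its usual form, so reads on a cluster gene depend on polyadenylated forms of its mRNA, and the values below are not levels of total histone mRNA. The labels do not state the selection step. CDK4 inhibition and p53 both hold cells before S phase.

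The 3′ ends of the members show this division. All 73 older cluster symbols were matched to current ones, and 70 of the genes were located on GRCh37, the build the reads were mapped to. Of these, 67 are annotated as protein coding, each with a single exon in its canonical transcript, and in all 67 a stem-loop of 16 bases followed the stop codon at a distance of 23 to 68 bases, with a median of 36. Among the 8 variants only H2AFX had one, 50 bases after the stop. The stem-loops are shown because they set the cluster genes apart from the other variants. They are written 5′ to 3′ in the sense of the mRNA as DNA, with the loop of the hairpin in capitals:
Most common form, in 39 genes, among them HIST1H1C, HIST1H2AC and HIST1H2BO: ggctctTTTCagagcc
Form of HIST1H4H, HIST4H4 and the others of a group of 9 H4 genes: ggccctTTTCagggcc
Form of 9 genes, among them HIST1H2BC, HIST1H2BD, HIST1H2BJ, HIST1H2BK and HIST1H3G: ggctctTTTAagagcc
Form of HIST2H4A, HIST2H4B, HIST1H4I and HIST1H4K: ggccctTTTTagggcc
HIST1H3E: ggctctTCTCagagcc
HIST1H2AG: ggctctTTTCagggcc
H2AFX: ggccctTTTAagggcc
The remaining 4 cluster genes each had a form of their own. The stem that begins ggcc was found in 14 of 14 H4 genes, and in 0 of the 6 H1, 17 H2A, 16 H2B and 14 H3 genes.

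Some cluster genes are annotated well beyond this hairpin. In GENCODE, 18 of the 67 coding cluster genes have at least 1 transcript that extends more than 100 bases past the stem-loop, and the polyadenylation signal AATAAA lies within 1000 bases after the stem-loop in 33. These 18 are HIST2H2BF, HIST2H4A, HIST2H4B, HIST2H2AA3, HIST2H2BE, HIST3H2A, HIST3H2BB, HIST4H4, HIST1H2AA, HIST1H2BC, HIST1H2AC, HIST1H2BD, HIST1H2BE, HIST1H3E, HIST1H4H, HIST1H2BJ, HIST1H3H and HIST1H2BN. HIST1H2BD has AATAAA 13 bases after its stem-loop and is annotated to 12747 bases past it. HIST1H1C also has the signal 13 bases after the stem-loop, although its annotation stops 4 bases after it. The limit of 100 bases was chosen with the values known, and the annotation used by the authors for counting is not given in the sources used here, so the split serves only as a description.

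Reads on the cluster genes were few and concentrated. At least 1 read was found for 65 of the 73 cluster genes over all 18 libraries, 33 of the 73 never exceeded 10 reads in a library, and 11 reached 100 reads in some library. The 15 genes with the highest mean CPM (the usual depth-scaled count, the reads of a gene relative to all reads counted in its library) held 93.4% of all cluster reads. HIST1H2BK (chr6:27114140-27114634, minus strand) and HIST1H1C (chr6:26055968-26056698, minus strand) together held 56.6% to 70.6% of the cluster reads of a library. Of the cluster genes, 19 passed the filter on low counts in all 9 comparisons, 16 in some of them and 38 in none. The 38 genes that were never tested together had 27 to 139 reads in a library. A gene that passed only through a group in which it is high had to differ, so counts of called genes are given out of all 73.

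Whether a histone gene was counted also depended on its sequence. The authors kept reads with a mapping quality of at least 10, which removes reads that match several places. HIST2H4A, HIST2H4B, HIST2H3A, HIST2H3C, HIST2H2AA3 and HIST2H2AA4, which exist as identical copies on chromosome 1, were at 0 in every library. None of the 50-base windows of their exons (the read length) occurs only once in the genome. H3F3A, a variant gene that encodes the same H3.3 protein as H3F3B, was also at 0 throughout, and 6.98% of its windows were unique. For the identical HIST2 copies the value 0 therefore says nothing about expression. Why H3F3A was at 0 was not tested, and its 0 is not read as absent expression. HIST1H4J and HIST1H4K, with 7.94% and 7.40% unique windows, had 18 and 27 reads in all. HIST1H2BK, the most read cluster gene, had 42.8% unique windows, HIST2H2BF 26.0%, and HIST2H2BC, annotated as a pseudogene, 20.3%. Reads from their repeated windows were removed by the mapping quality limit, so these values may be too low. HIST1H2AA and HIST1H2BA were at 0 with all windows unique, which allows up to 3 reads per library. HIST1H2BF, HIST1H2BG and HIST1H4F were not located and are described by symbol only.

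Total counts ranged from 12704845 in an N+PD30 library to 40231041 in a PD24 library. At this depth, 1 read in DMSO replicate 1 corresponds to 0.0303 CPM, so cluster genes below about 0.1 CPM rest on a few reads. Of the osteoblast markers, COL1A1 and SPARC were at 1122 CPM or more in all libraries and RUNX2 at 18.2 CPM or more, whereas SP7, IBSP and BGLAP did not exceed 0.244 CPM. Epithelial, leukocyte and endothelial markers stayed at or below 2.36 CPM, apart from CD14 (2.49 to 15.03 CPM) and VWF (1.27 to 13.5 CPM), and the part of other cells in the results was not tested. In DMSO the 3 libraries differed widely in the cluster genes (167, 135 and 92.5 CPM summed), and so did those of N+PD30 (199, 163 and 139 CPM).

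The summed level of the variants was lower in PD30 than in DMSO, while that of the cluster genes overlapped between them. Summed over the 8 variants, the level was 1870 ± 79.9 CPM (SD, n = 3) in DMSO, 1426 ± 113 CPM in Nutlin, 1038 ± 43.4 CPM in PD24, 752 ± 28.5 CPM in PD30, 833 ± 39.1 CPM in N+PD24 and 647 ± 4.32 CPM in N+PD30. The 5 treated groups did not overlap with DMSO, or with each other. Summed over the 73 cluster genes, the level was 132 ± 37.6 CPM in DMSO, 152 ± 26.4 CPM in Nutlin, 152 ± 26.4 CPM in PD24, 128 ± 10.2 CPM in PD30, 176 ± 8.07 CPM in N+PD24 and 167 ± 30.2 CPM in N+PD30. The libraries of every treated group overlapped with those of DMSO, N+PD24 narrowly, with its lowest library at 167.1 CPM and the highest DMSO library at 167.5 CPM. Without HIST1H2BK and HIST1H1C, the cluster sum was 40.1 ± 11.2 CPM in DMSO and 66.5 ± 5.77 and 69.3 ± 15.5 CPM in N+PD24 and N+PD30, whose libraries all lay above those of DMSO. These sums were not tested. In bulk RNA, fewer cells in S phase and less histone mRNA per cell cannot be told apart.

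**Figure D1:**
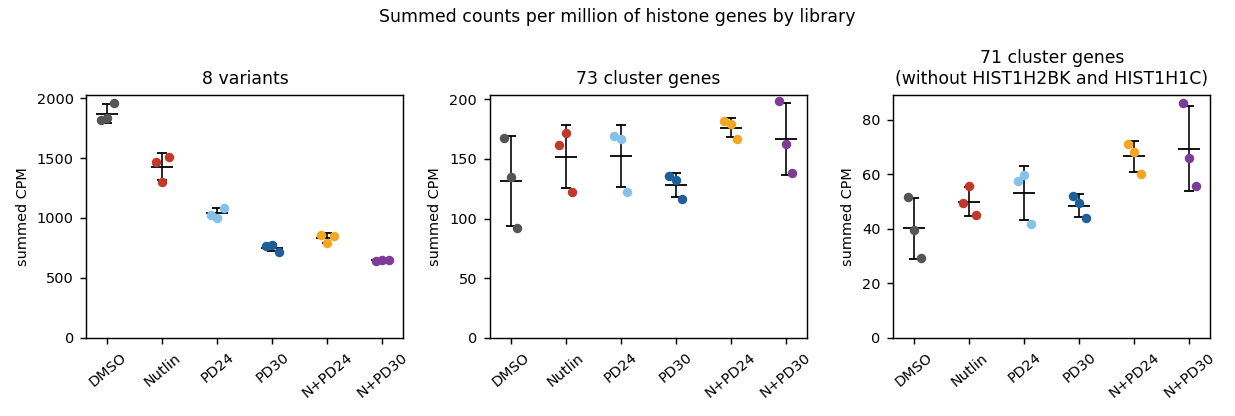
Summed CPM of the 8 variants, of the 73 cluster genes, and of the cluster genes without HIST1H2BK and HIST1H1C, in each of 18 libraries by group. Points are libraries, bars the mean ± SD (n = 3). The variants fall from about 1870 CPM in DMSO to 647 CPM in N+PD30, while the sums of all 73 cluster genes lie between 92.5 and 199 CPM.

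Among the variants, H2AFX, whose phosphorylated form marks DNA double-strand breaks, had the largest fold difference. It was at 78.5, 50.9 and 36.0 CPM in DMSO, 23.6, 52.0 and 48.4 CPM in Nutlin, 10.7, 15.9 and 6.39 CPM in PD24, 2.48, 3.84 and 3.72 CPM in PD30, 2.42, 5.90 and 7.51 CPM in N+PD24, and 4.72, 4.67 and 4.02 CPM in N+PD30. All 12 libraries with PD0332991 lay below all 6 without it. The log2 fold change was -4.05 ± 0.30 (SE) in PD30 against DMSO, with an adjusted p of 5.2e-06 in edgeR's quasi-likelihood test, and -2.31 ± 0.37 in PD24 against DMSO (adjusted p = 0.0013). H2AFX was lower in PD30 than in PD24, by 1.74 on the log2 scale (SE 0.33, adjusted p = 0.0056). For Nutlin against DMSO the groups overlapped (adjusted p = 0.45).

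H2AFZ and H2AFV encode the H2A.Z proteins, which sit at promoters and enhancers. H2AFZ was at 490, 550 and 587 CPM in DMSO and at 114, 112 and 102 CPM in PD30, lower by 2.33 on the log2 scale (SE 0.09, adjusted p = 6.2e-08). H2AFV was at 265, 261 and 291 CPM in DMSO and at 108, 96.9 and 94.5 CPM in PD30 (-1.47 ± 0.08, adjusted p = 7.4e-07). Neither was called between PD30 and PD24, at -0.28 for H2AFZ and 0.07 for H2AFV on the log2 scale, but H2AFZ was called lower with the replicate number as a block (-0.28, adjusted p = 0.016). H2AFY, the macroH2A gene linked to silenced chromatin, differed less, at 209, 222 and 229 CPM in DMSO against 148, 150 and 142 CPM in PD30 (-0.60 ± 0.07, adjusted p = 0.00013).

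H1F0, the linker histone typical of resting and differentiated cells, had the largest fold difference of the variants in Nutlin against DMSO and in N+PD30 against N+PD24, while in PD30 against PD24 it came after H2AFX and H1FX. It was at 51.9, 47.8 and 53.6 CPM in DMSO, 25.0, 16.9 and 23.7 CPM in Nutlin, 35.4, 44.1 and 56.2 CPM in PD24, 27.4, 21.7 and 19.8 CPM in PD30, 34.2, 31.4 and 35.8 CPM in N+PD24, and 15.4, 15.7 and 16.1 CPM in N+PD30. It fell with Nutlin by 1.10 on the log2 scale (SE 0.14, adjusted p = 0.00012) and with PD30 by 1.17 (SE 0.13, adjusted p = 6.4e-05), whereas the PD24 libraries overlapped with DMSO (-0.15 ± 0.15). H3F3B, which encodes the replication-independent H3.3, was also lower where PD0332991 stayed on than where it was removed: it was at 662, 659 and 736 CPM in DMSO, 599, 554 and 646 CPM in PD24, and 359, 377 and 348 CPM in PD30. It was lower in PD30 than in PD24 by 0.76 (SE 0.09, adjusted p = 0.00079). H1FX was at 59.5, 39.9 and 29.9 CPM in DMSO and at 6.89, 9.51 and 8.26 CPM in PD30 (-2.40 ± 0.24, adjusted p = 4.3e-05), and its PD24 libraries overlapped with DMSO at 21.4, 38.2 and 18.5 CPM.

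Counted over the variants, 7 of 8 fell in PD30 against DMSO and none rose. In that comparison 22.9% of all genes tested were called higher and 25.4% lower. In PD24 against DMSO 4 fell (H2AFX, H2AFZ, H2AFV and H2AFY) and none rose, where 17.5% of all genes were called higher and 20.8% lower. DESeq2 gave the same counts of 7 and 4, and no variant rose at an unadjusted p under 0.05 in either comparison. The median log2 fold change of the 7 variants tested was -1.47 in PD30 and -0.70 in PD24, against 0.00 and 0.02 over all genes tested. Both comparisons share the DMSO libraries.

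**Figure D2:**
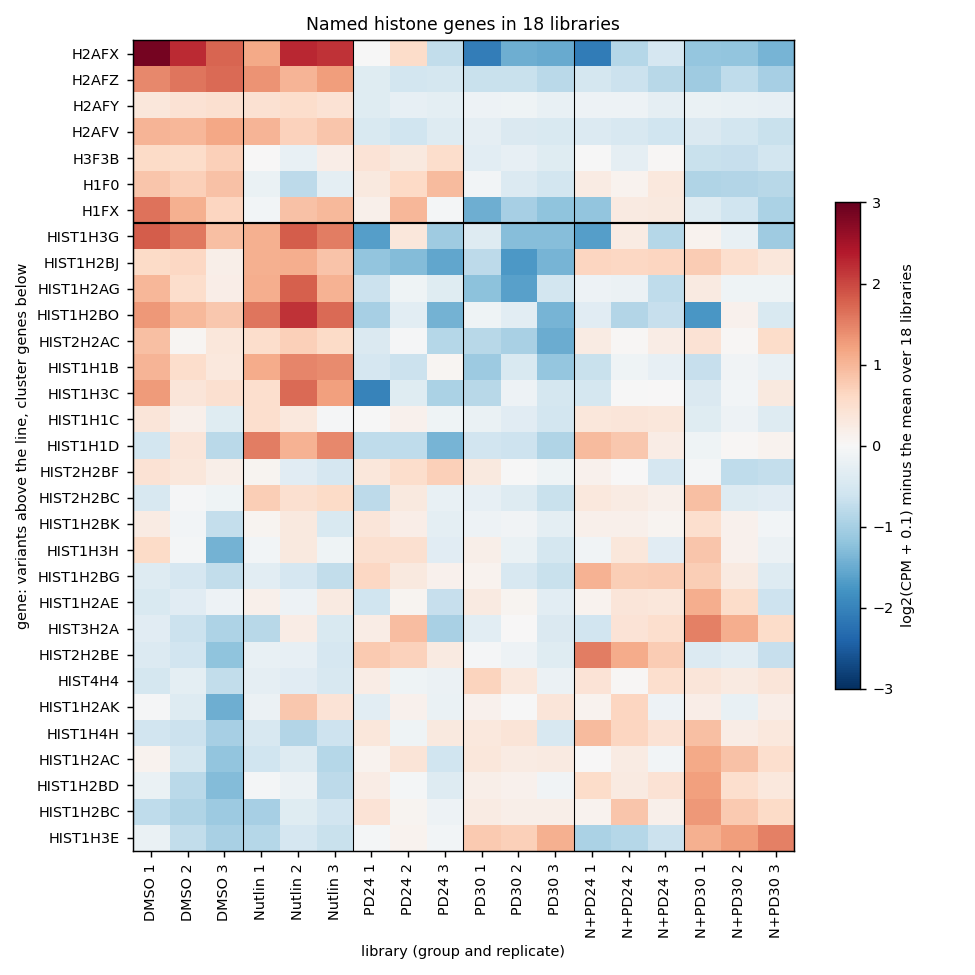
Log2(CPM + 0.1) of the named histone genes minus each gene's mean over 18 libraries, with variants above the line and, below it, cluster genes ordered by PD30 minus DMSO. H2AFX runs from 78.5 CPM in DMSO replicate 1 to 2.42 CPM in N+PD24 replicate 1, and HIST1H3E shows the opposite change in PD30 and N+PD30.

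Cluster genes were called in both directions under PD0332991, in shares near those over all genes. Of the 73, 6 were higher and 6 were lower in PD30 against DMSO, among 26 tested, with a median log2 fold change of 0.12, where 22.9% of all genes were called higher and 25.4% lower. In PD24 against DMSO, 4 were higher and 6 lower among 28 tested, with a median of 0.25, where 17.5% of all genes were called higher and 20.8% lower. The genes that fell in PD30 were HIST1H3G, HIST1H2AG, HIST1H2BO, HIST1H2BH, HIST1H2BJ and HIST1H3C. Those that rose were HIST1H3E, HIST1H2BC, HIST4H4, HIST1H4H, HIST1H2BD and HIST1H2AC. Of the genes that fell, only HIST1H2BJ and HIST1H3C were also tested in PD30 against PD24. The others passed the filter through DMSO libraries, where they were high. Their direction therefore follows from the filter, in PD24 against DMSO as well.

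HIST1H3G was at 1.00, 0.832 and 0.485 CPM in DMSO (33, 24 and 15 reads) and at 0.138, 0.0278 and 0.0284 CPM in PD30 (4, 1 and 1 reads). Its fitted log2 fold change of -3.62 ± 0.55 (adjusted p = 0.00057) rests on these few reads. HIST1H2BJ (chr6:27100095-27100574, minus strand) was at 2.30, 2.36 and 1.71 CPM in DMSO, 0.611, 0.548 and 0.447 CPM in PD24 and 0.827, 0.389 and 0.511 CPM in PD30. The groups did not overlap, and it fell by 1.98 in PD24 (SE 0.25, adjusted p = 0.00042) and by 1.92 in PD30 (SE 0.29, adjusted p = 0.00053) on the log2 scale. HIST1H2BO was at 0.727, 0.555 and 0.485 CPM in DMSO and at 0.0679, 0.169 and 0.0249 CPM in PD24, or 2, 4 and 1 reads (-2.87 ± 0.53, adjusted p = 0.0028). HIST1H3C, at 1.51, 0.763 and 0.840 CPM in DMSO, was at 0.276, 0.501 and 0.369 CPM in PD30 (-1.44 ± 0.36, adjusted p = 0.0088). HIST1H2AG was lower by 2.27 in PD30 (SE 0.47, adjusted p = 0.0034), and its call in PD24 (-1.21 ± 0.36, adjusted p = 0.028) was lost without DMSO replicate 1 or 2 or PD24 replicate 1 or 3, with adjusted p from 0.068 to 0.11.

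In the other direction, HIST1H3E (chr6:26225363-26225844, plus strand) was at 1.45, 0.971 and 0.808 CPM in DMSO, 1.63, 1.81 and 1.59 CPM in PD24 and 2.996, 2.84 and 3.66 CPM in PD30. It rose by 1.53 ± 0.24 on the log2 scale in PD30 (adjusted p = 0.00071) and was higher in PD30 than in PD24 by 0.88 ± 0.20 (adjusted p = 0.012). HIST1H2BC (chr6:26123695-26124154, minus strand) was at 1.09, 0.971 and 0.840 CPM in DMSO, 2.58, 2.02 and 1.72 CPM in PD24 and 2.27, 2.17 and 2.19 CPM in PD30. Its log2 fold change was 1.13 ± 0.24 in PD24 (adjusted p = 0.0059) and 1.17 ± 0.19 in PD30 (adjusted p = 0.00093). HIST2H2BE (chr1:149856009-149858232, minus strand) was the largest rise in PD24, at 14.2, 13.2 and 9.77 CPM against 6.09, 5.44 and 3.49 CPM in DMSO (1.32 ± 0.24, adjusted p = 0.0024). In PD30 it was at 7.99, 7.26 and 6.27 CPM, lower than in PD24 by 0.82 (SE 0.18, adjusted p = 0.012). HIST1H4H rose by 0.98 ± 0.22 in PD24 (adjusted p = 0.0078).

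The smaller rises in PD30 were less stable. HIST4H4 (0.91 ± 0.32, adjusted p = 0.042), HIST1H2AC (0.72 ± 0.27, adjusted p = 0.049), HIST1H2BD (0.76 ± 0.25, adjusted p = 0.03) and HIST1H4H (0.88 ± 0.28, adjusted p = 0.026) lost their calls without DMSO replicate 2 or 3 or PD30 replicate 1 or 2, and HIST4H4 also without DMSO replicate 1 and HIST1H2AC also without PD30 replicate 3, with adjusted p from 0.056 to 0.14. The count of cluster genes that rose in PD30 was then 2 without DMSO replicate 2, without DMSO replicate 3, without PD30 replicate 1 and without PD30 replicate 2, and the count that fell was 10 without DMSO replicate 3. With a filter on low counts left out, 12 cluster genes fell in PD30. HIST1H2BK, at 72.8, 57.9 and 37.5 CPM in DMSO and at 54.8, 56.5 and 50.0 CPM in PD30 (-0.08 ± 0.20), and HIST1H1C, at 43.2, 37.3 and 25.9 CPM in DMSO and at 29.1, 26.4 and 22.9 CPM in PD30 (-0.46 ± 0.18), overlapped between the groups.

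Set against the annotation, the 6 genes that rose in PD30 are all among the 18 with a transcript more than 100 bases past the stem-loop, of which 11 were tested and 1, HIST1H2BJ, fell. Of the 49 coding cluster genes annotated to end within 100 bases of the stem-loop, 13 were tested, none was higher (edgeR, called at the adjusted p) and 5 were lower. Of all genes tested in this comparison, 22.9% were called higher and 25.4% lower. The median log2 fold change was 0.72 over the 11 and -0.46 over the 13. In PD24 against DMSO, 3 of 11 rose and 1 fell in the first group (median 0.65), and 0 of 14 rose and 5 fell in the second (median -0.18). There 17.5% of all genes were called higher and 20.8% lower. Of the genes that fell in the second group, HIST1H3G, HIST1H2AG, HIST1H2BO and HIST1H2BH passed the filter only through DMSO libraries, where they were high. Their falls, and in part the lower medians of that group, follow from the filter in both comparisons. As the limit of 100 bases was chosen with the values known, the split is a description and not a result. Genes with a long annotation also take reads from a longer stretch if the authors' annotation includes it, and several HIST1 genes lie within a long non-coding gene on their own strand in GENCODE, among them HIST1H2AC, HIST1H2BD and HIST1H3E, which rose, HIST1H2BH, which fell, and HIST1H2AE and HIST1H1E, which were not called or not tested in PD30 against DMSO, so reads of such transcripts cannot be told apart from those of the histone gene. The part of either in these results was not tested.

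**Figure D3:**
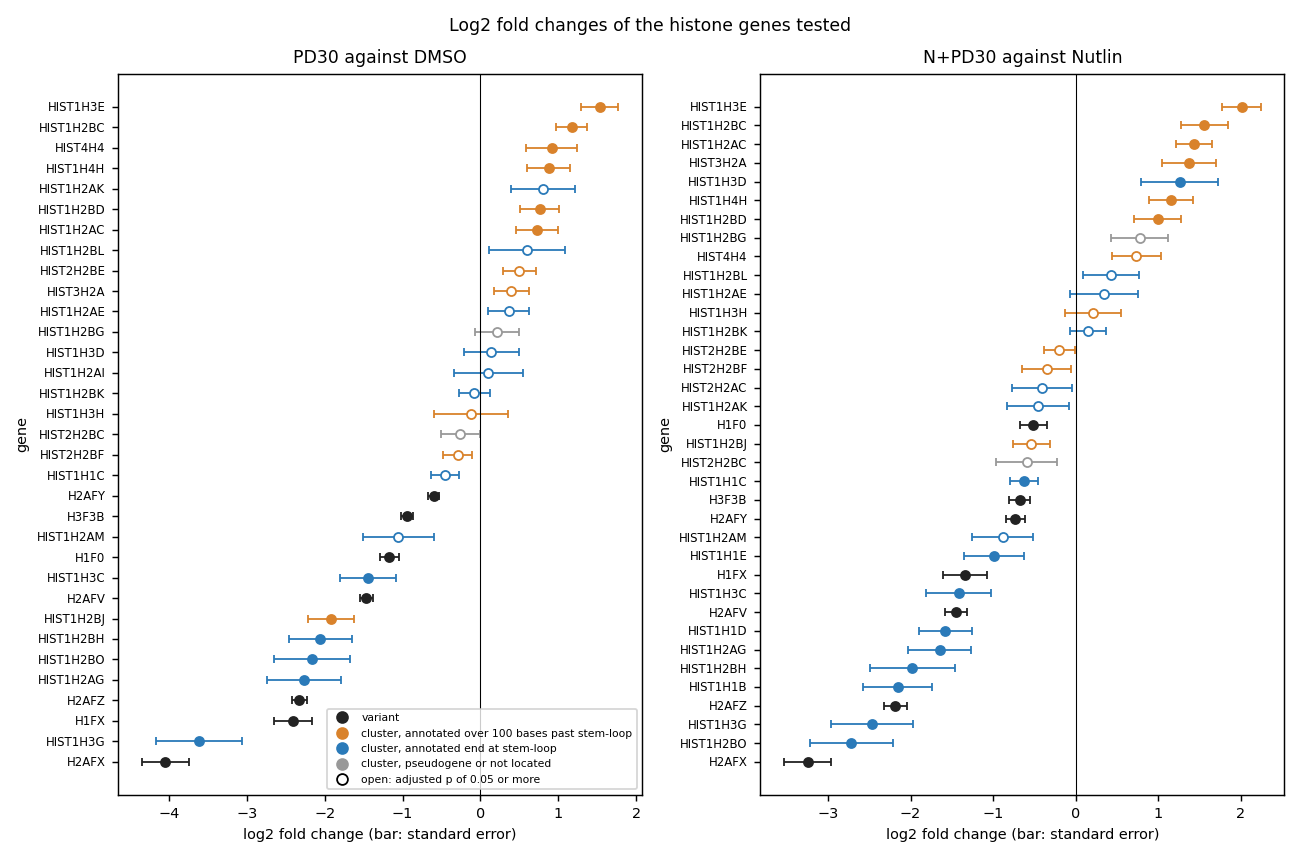
Log2 fold changes of the histone genes tested in PD30 against DMSO (left) and N+PD30 against Nutlin (right), with standard errors as bars. Filled points had an adjusted p under 0.05, and colours mark variants and cluster genes by how far their annotation reaches. H2AFX is lowest in both panels (-4.05 and -3.25) and HIST1H3E highest (1.53 and 2.01).

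Several H2A and H2B genes lie head to head and share one promoter region. Of the coding cluster genes, 10 such pairs, all of an H2A and an H2B gene, start 193 to 250 bases apart on opposite strands. In 2 of them both partners were lower in PD30 than in DMSO, HIST1H2BJ with HIST1H2AG (-1.92 and -2.27, both called) and HIST1H2AM with HIST1H2BO (-1.05 and -2.16, with only HIST1H2BO called), and in the pair of HIST1H2BC with HIST1H2AC both rose (1.17 and 0.72). HIST1H2AG and HIST1H2BO passed the filter through DMSO libraries, where they were high, so their falls follow from the filter. That both partners were lower in these 2 pairs is therefore not a result. The pair of HIST1H2BL with HIST1H2AI was at 0.60 and 0.10, and neither was called. In the other pairs at most 1 partner was tested, so whether partners move together was not tested. Shared regions are shown for the pairs with both partners tested and a called gene. They are read on the plus strand of GRCh37, from the start of the minus-strand gene to that of the plus-strand gene. Capitals mark matches on either strand to CCAAT and to TATAAA, to the octamer ATTTGCAT and the E2F site letters TTTCCCGC or TTTCGCGC or TTTGCCGC or TTTGGCGC:
HIST1H2BJ and HIST1H2AG, chr6:27100575-27100821: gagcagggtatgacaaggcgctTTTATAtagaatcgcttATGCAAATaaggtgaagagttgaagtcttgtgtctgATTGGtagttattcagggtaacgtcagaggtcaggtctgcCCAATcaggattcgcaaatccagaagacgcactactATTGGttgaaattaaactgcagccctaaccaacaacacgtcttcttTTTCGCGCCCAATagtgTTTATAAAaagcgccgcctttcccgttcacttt
HIST1H2AM and HIST1H2BO, chr6:27860964-27861202: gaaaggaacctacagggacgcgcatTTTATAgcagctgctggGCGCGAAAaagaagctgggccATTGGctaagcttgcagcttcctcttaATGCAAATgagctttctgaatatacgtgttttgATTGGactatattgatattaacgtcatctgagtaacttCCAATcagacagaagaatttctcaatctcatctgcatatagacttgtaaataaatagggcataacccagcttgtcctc
HIST1H2BC and HIST1H2AC, chr6:26124155-26124399: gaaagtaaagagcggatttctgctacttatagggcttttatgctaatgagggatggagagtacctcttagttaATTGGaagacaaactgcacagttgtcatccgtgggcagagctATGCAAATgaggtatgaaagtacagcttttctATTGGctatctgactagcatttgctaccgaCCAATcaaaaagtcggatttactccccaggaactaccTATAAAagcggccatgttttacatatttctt
Each region holds 1 octamer. CCAAT was matched 4, 3 and 3 times and TATAAA 3, 1 and 1 times in this order, with 2 of the 3 TATAAA matches overlapping. The E2F letters were matched 1, 1 and 0 times, and in the first region this match runs into a CCAAT.

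Over the 250 bases before the start of the 67 coding cluster genes, 83.6% held CCAAT, against 34.2% of 19881 promoters of protein-coding genes, and 67.2% held TATAAA against 9.26%. The octamer was in 35.8% of the cluster promoters against 1.53%, namely in 12 of 17 H2A and 12 of 16 H2B genes and in no H1, H3 or H4 gene. The E2F letters were in 20.9% against 3.76%, and TTTGAA or TTCGAA in 32.8% against 11.2%. Of the 8 variants, 62.5% held CCAAT, 50.0% TATAAA, 12.5% the octamer and 0% the E2F letters. Promoters of head-to-head genes largely repeat each other, so these shares do not come from independent sequences.

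Between PD24, where PD0332991 was removed after 24 h, and PD30, few cluster genes differed. Of the 73, HIST1H3E was higher and HIST2H2BE lower, where 12.2% of all genes were called higher and 12.9% lower. In this comparison libraries with the same replicate number deviated together, and with the replicate number as a block 5 cluster genes were lower (HIST2H3D, HIST2H2BE, HIST1H2BG, HIST1H1C and HIST1H2BK) and HIST1H3E was higher, while H2AFZ was lower as well (-0.28, adjusted p = 0.016). Over all genes the block raised the calls in both directions together from 3816 to 6107 of 15171, so the added calls are not particular to histone genes. Without the block, 4 variants were lower, H2AFX, H1FX, H1F0 and H3F3B, and none higher. DESeq2 gave 2 lower cluster genes, and leaving out PD24 replicate 1 gave 2, PD24 replicate 3 gave 5 and PD30 replicate 1 gave 3.

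With Nutlin alone, cluster genes were called higher no more often than genes at large. Of the 73 cluster genes, 7 were higher and 0 lower than in DMSO, among 30 tested, with a median log2 fold change of 0.50 against 0.03 over all genes tested. Of all genes, 26.6% were called higher and 28.0% lower, so the 7 of 30 are not a result about the cluster genes as a group. The 0 lower lies below the share over all genes, and 27 of the 30 had a log2 fold change above 0, against 8165 of 15766 genes tested. Genes that passed the filter through the Nutlin libraries, such as HIST1H1D and HIST1H1B, add to this, and it was not tested. No cluster gene was lower at an unadjusted p under 0.05 or with DESeq2, which called 5 higher. Total-count scaling, which moved the median of all genes by -0.13, gave 4 higher and 1 lower, and the count of higher genes was 12 without DMSO replicate 1, 4 without DMSO replicate 2 and 3 without DMSO replicate 3 or Nutlin replicate 2, while 2 were lower without Nutlin replicate 1. Of the 7 variants tested, H1F0 and H3F3B fell and none rose, also near the share over all genes. H3F3B was at 455, 384 and 516 CPM with Nutlin (-0.48 ± 0.11, adjusted p = 0.0034).

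With Nutlin, the largest rise was that of the linker histone gene HIST1H1D, from 0.212, 0.485 and 0.162 CPM in DMSO to 1.21, 0.833 and 1.14 CPM in Nutlin, or from 26 to 93 reads in all (2.02 ± 0.39, adjusted p = 0.0015). HIST1H1D and HIST1H1B, given below, were not tested in PD24 or PD30 against DMSO. They passed the filter here through the Nutlin libraries, where they were high, so their direction follows from the filter. HIST1H2BO was at 0.918, 1.40 and 0.995 CPM with Nutlin (1.03 ± 0.29, adjusted p = 0.013, lost without Nutlin replicate 2 with 0.063), and the pseudogene HIST2H2BC at 1.74, 1.43 and 1.55 CPM against 0.697, 0.971 and 0.905 CPM in DMSO (1.00 ± 0.23, adjusted p = 0.0047). HIST1H2BJ was at 3.28, 3.30 and 2.80 CPM (0.69 ± 0.20, adjusted p = 0.015), a call lost without DMSO replicate 3 or Nutlin replicate 2 (adjusted p 0.055 and 0.056). HIST1H2AG (0.96 ± 0.34, adjusted p = 0.036), HIST1H1B (0.94 ± 0.33, adjusted p = 0.034) and HIST1H2AK (1.205 ± 0.46, adjusted p = 0.047, groups overlapping) were called only narrowly. Each lost its call without DMSO replicate 2 or 3 or Nutlin replicate 2, HIST1H1B and HIST1H2AK also without Nutlin replicate 3, with adjusted p from 0.074 to 0.19, and all 3 with DESeq2 and with total-count scaling (adjusted p from 0.061 to 0.15).

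With Nutlin present, PD30 lowered the variants and moved cluster genes in both directions. In N+PD30 against Nutlin, 7 cluster genes were higher and 9 lower among 29 tested, and 7 of 8 variants were lower, where 24.3% of all genes were called higher and 24.7% lower. The share of higher cluster genes was near that over all genes. HIST1H3E was at 3.62, 4.17 and 4.99 CPM in N+PD30 against 0.885, 1.17 and 1.03 CPM in Nutlin (2.01 ± 0.23, adjusted p = 5.8e-05). HIST1H2BC was at 4.88, 3.39 and 2.91 CPM against 0.918, 1.47 and 1.25 CPM (1.56 ± 0.29, adjusted p = 0.0012), and HIST1H2AC at 17.3, 14.52 and 11.2 CPM against 5.21, 5.99 and 4.27 CPM (1.43 ± 0.22, adjusted p = 0.0004). Of the 4 H1 cluster genes tested, HIST1H1C was lower (-0.62 ± 0.17, adjusted p = 0.01). HIST1H1B (-2.16), HIST1H1D (-1.58) and HIST1H1E (-0.99) were called lower as well. However, those genes were not tested in N+PD30 against PD30. They passed the filter here through the Nutlin libraries, where they were high, so their direction follows from the filter. HIST1H1C, the H1 gene with the most reads, was at 47.8, 41.5 and 32.4 CPM in Nutlin and at 26.1, 29.9 and 25.4 CPM in N+PD30. HIST1H2BO (-2.72 ± 0.50, adjusted p = 0.0012) and HIST1H3G (-2.47 ± 0.49, adjusted p = 0.002) were the lowest by fold, at 0 to 8 reads per N+PD30 library. Both also passed the filter through the Nutlin libraries.

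Of the genes annotated past the stem-loop, 6 of 11 tested were higher and 0 lower in this comparison, and of those ending at it 1 of 16, HIST1H3D, was higher and 9 were lower. The shares over all genes were 24.3% higher and 24.7% lower. Among these 9, only HIST1H3C and HIST1H1C were also tested in N+PD30 against PD30. The others passed the filter through the Nutlin libraries, where they were high, so this split is not a result. The call of HIST1H2BD (0.99 ± 0.28, adjusted p = 0.014) was lost without Nutlin replicate 3 (0.055), that of HIST1H3C (-1.42 ± 0.39, adjusted p = 0.012) without Nutlin replicate 2 (0.055), and that of H1F0 (-0.51 ± 0.16, adjusted p = 0.024) without Nutlin replicate 1 or 3 or N+PD30 replicate 2 (0.069 to 0.087). Without the filter on low counts, 14 cluster genes were lower.

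In N+PD24 against Nutlin, tested with limma on log2 values because the deposited N+PD24 values are not plain counts, 6 cluster genes were higher and 6 lower among 30 tested. Of all genes, 16.8% were called higher and 17.1% lower, near the shares of the cluster genes. HIST2H2BE was at 23.7, 17.7 and 13.8 CPM in N+PD24 against 7.01, 6.86 and 5.71 CPM in Nutlin (1.53 ± 0.22, adjusted p = 0.00071), HIST1H2BG at 2.91, 2.36 and 2.38 CPM against 1.08, 0.933 and 0.774 CPM (SE 0.24 on the log2 scale, adjusted p = 0.0013), and HIST1H4H at 4.39, 3.55 and 3.03 CPM against 1.57, 1.17 and 1.40 CPM (1.45 ± 0.23, adjusted p = 0.0012). HIST1H3G, HIST1H2BO, HIST1H1B, HIST1H2AG, HIST1H2BH and HIST1H3C were lower, by 1.35 (HIST1H3C) to 2.92 (HIST1H3G) on the log2 scale. Of these, only HIST1H3C was also tested in N+PD30 against N+PD24. The others passed the filter here mainly through the Nutlin libraries, where they were high. HIST1H3C lost its call without Nutlin replicate 2 (adjusted p = 0.074), and HIST1H2BC and HIST1H2AC without N+PD24 replicate 2 (0.066 and 0.067). HIST1H2BJ, at 2.42, 2.36 and 2.42 CPM, was not called (-0.30 ± 0.18). HIST1H3E was also not called, at 0.820, 0.893 and 1.05 CPM (-0.08 ± 0.25). Of the variants, H2AFX, H2AFZ, H2AFV and H2AFY were lower and H1F0 was higher (0.72 ± 0.15, adjusted p = 0.0057). Same-numbered libraries deviated together here too, and with the replicate block H1FX was also lower (adjusted p = 1.3e-05), and HIST3H2A, HIST4H4 and HIST1H2AM joined the called cluster genes. Over all genes the block raised the calls in both directions together from 5399 to 8362 of 15927. N+PD24 and N+PD30 are both compared with the same Nutlin libraries.

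The 2 combined treatments were also compared directly, with limma. In N+PD30 against N+PD24, HIST1H3E (2.05 ± 0.22, adjusted p = 0.00039) and HIST1H2AC (0.67 ± 0.20, adjusted p = 0.031) were higher, and HIST2H2BE (-1.73 ± 0.23, adjusted p = 0.00078) and HIST1H1C (-0.77 ± 0.13, adjusted p = 0.002) were lower, where 15.4% of all genes were called higher and 15.8% lower. The libraries of HIST2H2BE did not overlap, at 6.06, 6.48 and 5.04 CPM in N+PD30. HIST1H1C was at 42.6, 43.1 and 42.5 CPM in N+PD24. The call of HIST1H2AC was lost without any N+PD24 library or N+PD30 replicate 1 or 2 (adjusted p from 0.051 to 0.092), which left HIST1H3E as the 1 higher gene. Of the variants, H1F0 (-1.21 ± 0.12, adjusted p = 0.00033) and H3F3B (-0.66 ± 0.12, adjusted p = 0.0032) were lower.

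With PD0332991 present throughout, adding Nutlin raised 4 cluster genes and lowered 0, among 20 tested in N+PD30 against PD30, where 8.84% of all genes were called higher and 5.64% lower. None was lower at an unadjusted p under 0.05 or with DESeq2, which called 6 higher. HIST1H2BJ was at 2.60, 2.18 and 1.94 CPM in N+PD30 against 0.827, 0.389 and 0.511 CPM in PD30 (2.06 ± 0.30, adjusted p = 0.0052), beside 1.71 to 2.36 CPM in DMSO. HIST3H2A was at 7.63, 5.75 and 3.92 CPM against 2.101, 2.64 and 1.93 CPM (1.45 ± 0.28, adjusted p = 0.014, lost without PD30 replicate 1 or N+PD30 replicate 2 with 0.067 and 0.06). HIST1H2BC (0.82 ± 0.23, adjusted p = 0.048) and HIST1H2AC (0.66 ± 0.18, adjusted p = 0.043) were near the threshold and lost their calls with total-count scaling and without any PD30 library or N+PD30 replicate 1 or 2 (adjusted p from 0.083 to 0.14). The count was 1 without PD30 replicate 1 or N+PD30 replicate 2 and 2 without PD30 replicate 2, PD30 replicate 3 or N+PD30 replicate 1. Same-numbered libraries deviated together, and with the replicate block 8 cluster genes were higher, now also HIST1H2BD, HIST1H2BG, HIST1H3E and HIST1H2BK, and H1FX was higher and H1F0 lower. The block also raised the calls over all genes, from 2183 to 4375 of 15077 in both directions together, so the added calls are not particular to histone genes. Without the block no variant was called in either direction with edgeR, whereas at an unadjusted p under 0.05 2 were higher and 2 lower, and DESeq2 called 1 in each direction.

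The difference between the Nutlin effects with and without PD30 was tested as an interaction over 12 libraries. HIST1H2BJ (1.42 ± 0.35, adjusted p = 0.013) and HIST2H2AC (2.11 ± 0.62, adjusted p = 0.03) were the 2 cluster genes called, both with a higher Nutlin effect in the presence of PD0332991, and 0 cluster genes had a lower one. Of all genes, 12.8% were called higher and 7.03% lower. HIST2H2AC was at 0.576, 0.277 and 0.356 CPM in DMSO, 0.426, 0.500 and 0.442 CPM in Nutlin, 0.103, 0.0834 and 0.0284 CPM in PD30 (3, 3 and 1 reads) and 0.394, 0.269 and 0.436 CPM in N+PD30. HIST2H2AC passed the filter only in comparisons that include the Nutlin libraries, and was not tested in PD30 against DMSO or in N+PD30 against PD30. Its positive term rests on the few reads in PD30 and is not read as a result. Its call was lost without DMSO replicate 1, Nutlin replicate 1, PD30 replicate 3 or N+PD30 replicate 1 or 3 (adjusted p from 0.051 to 0.079). At an unadjusted p under 0.05, 3 cluster genes were higher and 2 lower, and DESeq2 called 1 higher and 0 lower. The count of higher genes was 4 without DMSO replicate 3 and 1 without DMSO replicate 1, PD30 replicate 3 or N+PD30 replicate 1, and the count of lower genes was 1 without DMSO replicate 1. Of the variants, H1F0 was called (0.70 ± 0.20, adjusted p = 0.023), but not without Nutlin replicate 2, PD30 replicate 3 or N+PD30 replicate 2 (0.051 to 0.061).

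Genes that act on histone mRNA moved as well. SLBP, which binds the stem-loop, was at 70.3 ± 7.45 CPM in DMSO, 21.4 ± 1.93 CPM in Nutlin, 39.0 ± 2.39 CPM in PD24 and 30.9 ± 0.787 CPM in PD30 (SD, n = 3), and NPAT, which activates histone genes at S phase entry, at 25.1 ± 3.32, 11.1 ± 1.68, 10.1 ± 1.16 and 10.4 ± 1.58 CPM. Both were lower in each of the 3 groups than in DMSO, with log2 fold changes of -1.59, -0.83 and -1.20 for SLBP and -1.05, -1.30 and -1.28 for NPAT, and adjusted p of 0.00041 or less. These 2 were named with their values known. In PD30 against DMSO, Nutlin against DMSO and N+PD30 against Nutlin, in this order, 22.9%, 26.6% and 24.3% of all genes were called higher and 25.4%, 28.0% and 24.7% lower, against which the counts of the following lists are to be read. A list of 16 genes was drawn up around the 3′ processing of stem-loop histone mRNA, though not all of them act in that step. Of these, 10 were lower and 2 higher in PD30 against DMSO, 9 lower and 0 higher in Nutlin against DMSO, and 6 lower and 2 higher in N+PD30 against Nutlin. The largest falls were LSM11, a subunit of the U7 particle that guides the cleavage (-1.49 in PD30 and -1.67 in Nutlin), and CASP8AP2 (-1.43 and -1.89), and the 2 rises in PD30 were ZCCHC6 (0.69), which adds uridines to RNA ends, and LSM10 (0.36). In N+PD30 against Nutlin, ERI1 (-0.84) and NCBP1 (-0.83) fell most, and LSM10 (1.01) and UPF1 (0.54) rose.

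Of 11 genes for histone gene transcription, 8 were lower and 0 higher in PD30, against 25.4% and 22.9% of all genes, led by CCNE2 (-6.99) and E2F1 (-4.74). With Nutlin, against 28.0% of all genes, 8 were lower, led by CCNE2 (-3.25) and CCNE1 (-2.38), and POU2AF1 was higher (0.77). In N+PD30 against Nutlin 6 were lower, again with CCNE2 (-4.44) and E2F1 (-3.86), and HINFP, which activates H4 genes, was higher (0.94). All 12 S phase genes were lower in PD30, from -2.91 (MCM2) to -6.64 (RRM2), with TYMS at -5.13, and all 12 in N+PD30 against Nutlin, led by RRM2 (-6.18) and MCM5 (-4.15). With Nutlin alone 8 were lower, led by CDT1 (-1.66) and CDC6 (-1.48), and TYMS was higher (0.55).

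Of 17 histone chaperones, which carry histones to DNA, 13 were lower and 0 higher in PD30, against 25.4% and 22.9% of all genes, led by HJURP (-6.50) and ASF1B (-6.41). With Nutlin 10 were lower and 0 higher, led by HJURP (-1.91) and CHAF1A (-1.46), and in N+PD30 against Nutlin 12 were lower, led by ASF1B (-5.97) and HJURP (-4.84), and DAXX (0.57) and HIRA (0.50) were higher. Of 8 other histone variants, 3 were tested, and CENPA, the centromeric H3, and H2AFY2 were lower in all 3 comparisons, by 5.93 and 1.33 in PD30, 1.81 and 0.65 in Nutlin and 3.70 and 0.77 in N+PD30 against Nutlin. Of 15 genes for cleavage and polyadenylation, 11 were lower and 1 higher in PD30, led by NUDT21 (-0.98) and CPSF4 (-0.60), with PABPN1 at 0.81. With Nutlin 6 were lower, led by CSTF1 (-1.496) and PAPOLG (-1.08), and 4 higher, led by CSTF3 (1.33) and PABPN1 (0.68), where 26.6% of all genes were called higher and 28.0% lower. In N+PD30 against Nutlin 5 were higher, led by CSTF1 (0.69) and PAPOLG (0.59), and 5 lower, led by NUDT21 (-0.73) and CSTF3 (-0.70). Whether the changes in processing factors bear on the reads of the cluster genes was not tested.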

How the data were processed

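RNA of 18 SJSA-1 libraries was read as single 50-base reads. Alignment by the authors used TopHat with Bowtie 2 (build hg19), and HTSeq 0.6.0 then assigned reads to genes (reverse strand, mapping quality of at least 10). The authors deposited plain counts for 5 groups. For N+PD24 the deposited signal had been scaled by a factor for each library, and multiplied back 100% of the values were whole to within 0.01 reads. Fold changes and base means that the authors deposited were not used. CPM were computed from each library's own total.

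Pairs of groups were compared with the quasi-likelihood test of edgeR 4.0.16 (R 4.3.3, TMM, filterByExpr), and pairs with N+PD24 with limma 3.58.1 on log2 TMM-scaled values plus a pseudocount of 1, where fold changes of low genes are understated. Genes were called at a Benjamini-Hochberg adjusted p under 0.05 over all genes tested. Tests were checked on simulated data with changes placed in well-counted genes only, which does not cover the low counts of most cluster genes. Alternatives were DESeq2 1.42.0, total-count scaling, no filter, a replicate block, leaving out each library and, for limma, edgeR on recovered reads and a pseudocount of 5. Same-numbered libraries deviated together in PD30 against PD24 (r from 0.317 to 0.608), N+PD30 against PD30 (0.206 to 0.707) and N+PD24 against Nutlin (0.474 to 0.683), the pairing coming from the data, since the labels give only the number.

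Positions, stem-loops and promoters were read from GRCh37 with GENCODE 44 lifted to it, and symbols were matched with RefSeq synonyms. The members and lists were chosen with earlier results of these data known. Named genes are the variants, the 15 cluster genes with the highest mean CPM, the 3 largest rises and falls among called cluster genes per comparison, cluster genes at 0 throughout, and the 2 largest rises and falls of each list in 3 comparisons. Other called or located genes were named after their values were seen.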

Additional observations from a re-analysis of the deposited data

Results flagged for a closer look

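For 3 named genes the response to Nutlin differed with PD30 by the interaction term. The Nutlin effect with PD30 minus that without was 2.11 on the log2 scale for HIST2H2AC, 1.42 for HIST1H2BJ and 0.70 for H1F0. HIST1H2BJ had a log2 fold change of 0.69 for Nutlin against DMSO and 2.06 for N+PD30 against PD30, and H1F0 had -1.10 and -0.45. HIST2H2AC was not tested in N+PD30 against PD30, where it had 22 and 7 reads in all. It passed the filter only in comparisons that include the Nutlin libraries, so its term is not read as a result.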

How the results depend on the processing

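Low read numbers limit most cluster genes. The 95 called values of named genes kept their direction in all 990 refits, and 83 of these lost the call, 69 of them on leaving out 1 library. The refits reuse the same libraries and start from called values, so a kept direction is not independent support. Counts of called cluster genes moved by over 1.5 times as follows. Total-count scaling gave 4 higher and 1 lower for Nutlin against DMSO and 2 higher for N+PD30 against PD30. Without a filter, 12 were lower for PD30 against DMSO, 2 for PD30 against PD24, 14 for N+PD30 against Nutlin and 11 for N+PD24 against Nutlin. DESeq2 gave 2 lower for PD30 against PD24 and 1 higher for the interaction. With the replicate block, 8 were higher for PD24 against DMSO, 5 lower for PD30 against PD24, 8 higher for N+PD30 against PD30 and 1 lower for the interaction. The block also raised the calls over all genes in each of these comparisons, for example from 5781 to 6793 of 15094 in PD24 against DMSO. In the other comparisons the same-numbered libraries did not all deviate together, as in PD24 against DMSO with r from 0.084 to 0.626. So few libraries cannot show whether the numbers there carry a pairing. Leaving out 1 library gave 3 to 12 higher and 0 to 2 lower for Nutlin against DMSO, 4 to 6 and 5 to 6 for PD24 against DMSO, 2 to 8 and 6 to 10 for PD30 against DMSO, 1 and 1 to 5 for PD30 against PD24, 5 to 8 and 7 to 12 for N+PD30 against Nutlin, 1 to 6 and 0 for N+PD30 against PD30, 4 to 6 and 5 to 8 for N+PD24 against Nutlin, 1 to 3 and 2 to 3 for N+PD30 against N+PD24, and 1 to 4 and 0 to 1 for the interaction. The summed CPM of the cluster genes in N+PD24 was 189 with TMM-scaled library sizes against 176, and that in DMSO 128 against 132. The narrow overlap of these groups thus holds for total-count CPM. The causes were not tested.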
